A study of Mus musculus with 2 samples.

Results

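Neutrophil granule and S100 genes were followed through the non-parenchymal cells (NPCs) of a normal and a fibrotic mouse liver. The 10 genes were chosen by name: S100a8, S100a9, Camp, Ngp, Ltf, Lcn2, Elane, Mpo, Retnlg and Wfdc21. All 10 were listed in both gene tables, among 20468 genes in the normal library and 20473 in the fibrosis library. They are described in neutrophils, in monocytes, and as low counts in cells that do not make them.

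Both mice were C57BL/6 males of 8 weeks. The normal mouse was injected intraperitoneally with olive oil and the fibrotic mouse with carbon tetrachloride (CCl4), a hepatotoxin, 2 times a week for 6 weeks. NPCs were released by collagenase perfusion, and hepatocytes were spun out at low speed. The paper states that a density gradient followed, of which the upper layers were taken. Shares of cells below are therefore shares of a library and not of a liver. Single-cell RNA was sequenced by the droplet method of 10x Genomics from the 3′ end, with 1 library and 1 mouse in each condition. No difference between the conditions could therefore be tested against the spread between mice, and every interval below is a 95% interval that covers counting error only.

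Neutrophils fill their granules in the bone marrow, in waves. Azurophil granules, with myeloperoxidase (Mpo) and neutrophil elastase (Elane), are made first, in promyelocytes. Specific granules, with lactoferrin (Ltf), the cathelicidin Camp, lipocalin 2 (Lcn2) and neutrophilic granule protein (Ngp), follow in myelocytes and metamyelocytes, and their messages are largely gone from mature cells. S100a8 and S100a9 form calprotectin, a calcium- and zinc-binding heterodimer that fills the cytosol of mature neutrophils and of some monocytes. Retnlg is a resistin-like secreted protein, and Wfdc21 is a small secreted protein with a whey acidic protein (WAP) domain.

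The S100 pair lay side by side on chromosome 3 of the GRCm38 build, S100a8 at chr3:90668978-90670035 on the plus strand and S100a9 at chr3:90692632-90695721 on the minus strand. Camp (chr9:109847379-109849617, minus strand), Ngp (chr9:110419747-110423012, plus strand) and Ltf (chr9:111019271-111042767, plus strand) lay in this order on chromosome 9, with long stretches between them. Because these groups are described together below, the bases just upstream of their genes are shown, read on the gene's own strand from the RefSeq promoter table of GRCm38.p6. Capitals mark matches of the C/EBP core TTNNGNAA, searched on both strands. The stretches shown cover chr3:90668821-90668977 for S100a8, chr3:90695722-90695971 for S100a9, chr9:110419558-110419746 for Ngp, chr9:111019042-111019270 for Ltf and chr9:109849618-109849706 for Camp.
S100a8: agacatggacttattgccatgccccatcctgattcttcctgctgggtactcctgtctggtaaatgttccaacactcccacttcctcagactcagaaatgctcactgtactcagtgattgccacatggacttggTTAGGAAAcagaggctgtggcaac
S100a9: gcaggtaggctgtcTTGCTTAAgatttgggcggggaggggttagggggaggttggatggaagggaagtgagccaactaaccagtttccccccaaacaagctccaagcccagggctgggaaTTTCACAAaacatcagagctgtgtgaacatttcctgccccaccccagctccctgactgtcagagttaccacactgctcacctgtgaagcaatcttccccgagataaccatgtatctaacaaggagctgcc
Ngp: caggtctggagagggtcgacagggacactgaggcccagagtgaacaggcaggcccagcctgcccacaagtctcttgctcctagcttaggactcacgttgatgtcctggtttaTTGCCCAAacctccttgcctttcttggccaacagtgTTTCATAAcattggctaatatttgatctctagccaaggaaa
Ltf: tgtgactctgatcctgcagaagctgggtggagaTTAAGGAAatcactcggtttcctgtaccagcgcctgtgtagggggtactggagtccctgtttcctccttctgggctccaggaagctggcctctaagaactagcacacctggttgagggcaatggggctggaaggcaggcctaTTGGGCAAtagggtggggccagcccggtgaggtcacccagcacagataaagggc
Camp: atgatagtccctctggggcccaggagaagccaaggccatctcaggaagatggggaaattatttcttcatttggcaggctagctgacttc
In the 250 bases before the RefSeq start, the core was present in 6 of the 9 members in the table, namely S100a8, S100a9, Ngp, Ltf, Lcn2 and Retnlg. It was present in 36.8% of the 32851 promoters searched, which did not cover every chromosome. The PU.1 core AGGAAGT, on either strand, was present in S100a8, Elane and Mpo, 3 of the 9, beside 7.69% of the promoters searched. The stretches shown were cut where the GENCODE gene begins, so they can be shorter than the window searched. A further Ngp match, 11 to 4 bases before the RefSeq start, is not in them. The Lcn2 window lay wholly inside the GENCODE gene. A match of letters is a description of the window and does not show that a factor bound there.

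The normal library held 8130 cells and 44062632 unique molecules (UMIs), and the fibrosis library 6437 cells and 53288463 UMIs. After cells with over 10% mitochondrial UMIs were left out, 7471 and 6132 cells remained, with a median of 4226 and 5775.5 UMIs. The libraries shared 13 cell barcodes among the kept cells. Levels are given as UMIs per 10000 UMIs of a class of cells. Classes were made by clustering each library without the 10 members, and named "X-like" from fixed marker lists that hold none of them.

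Neutrophil-like cells were similar in number in both libraries and shallow. There were 191 in the normal library (2.56% of kept cells, 95% interval 2.21 to 2.94) and 192 in the fibrosis library (3.13%, 2.71 to 3.6). Their median depth was 2650 UMIs in normal and 1682 in fibrosis, so they held 1.45% and 0.696% of all UMIs. All 15 naming markers, such as Csf3r, Cxcr2 and Ly6g, were more than 2-fold above the other cells in both libraries, with summed levels of 94.1 against 1.55 in normal and 93.2 against 2.48 in fibrosis. RNA of other cells was present in them as well. Hepatocyte markers summed to 251 in normal and 29.3 in fibrosis, endothelial markers to 44.5 and 28.3, and haemoglobin and erythroid markers to 41.9 and 1.79. Kupffer cell markers went the other way, from 10.5 to 49.8, and non-classical monocyte markers from 3.03 to 7.32. Their part in the results was not tested.

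**Figure D1:**
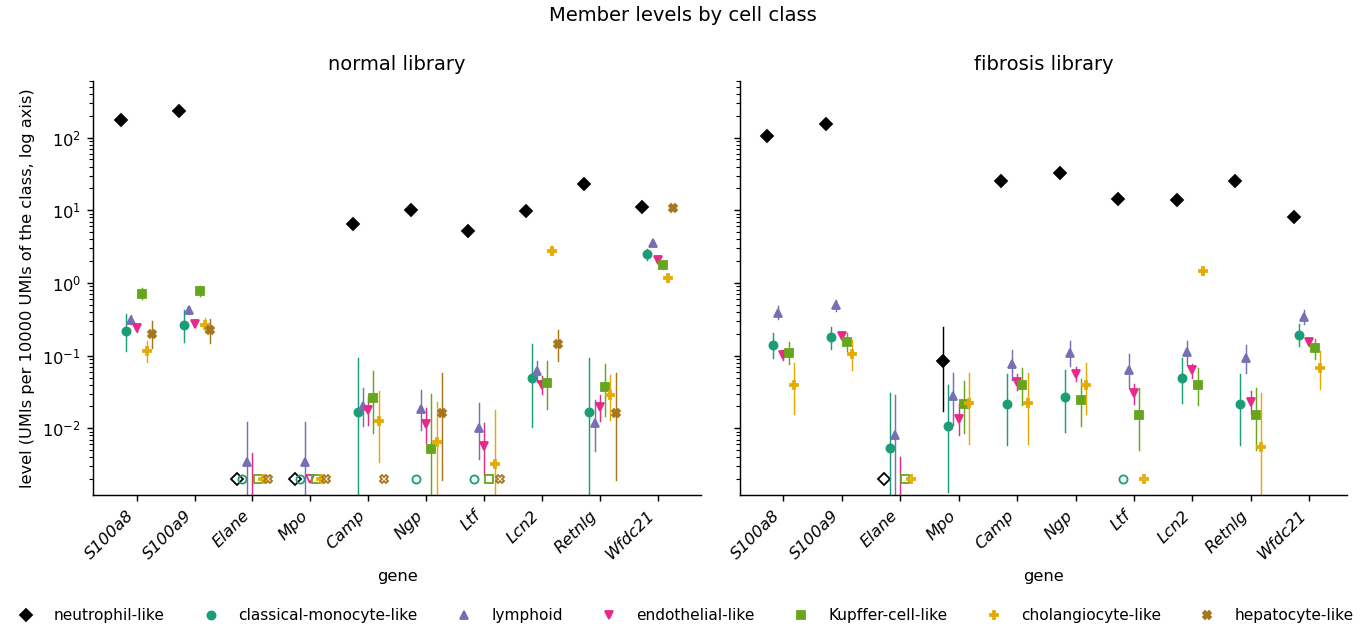
Level of each member (x axis, gene; y axis, log scale, UMIs per 10000 UMIs of the class) in 7 cell classes (hepatocyte-like cells in normal alone), with the normal library on the left and the fibrosis library on the right, 1 library each. Symbols stand for classes, bars are exact Poisson intervals of counting error, and open symbols at the bottom stand for 0 UMIs. S100a8 and S100a9 stand at 106 to 235 in neutrophil-like cells and at 0.786 or lower in the other classes drawn, while Wfdc21 stands at 10.8 in hepatocyte-like cells.

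Across all kept cells, the S100 pair was at 7.02 per 10000 in normal and 2.25 in fibrosis, a ratio of 0.32 (0.313 to 0.327), and most UMIs of the members lay in the few neutrophil-like cells. In the normal library 60.0% of the 47649 member UMIs were in neutrophil-like cells (59.6 to 60.5), and in fibrosis 70.4% of 19124 (69.8 to 71.1). Retnlg was the most concentrated member in both libraries, at 93.6% in normal and 86.4% in fibrosis. S100a8 was at 84.3% and 79.9%, and S100a9 at 85.6% and 80.7%. Ngp was at 52.9% in normal and 84.0% in fibrosis, Ltf at 57.5% and 80.4%, and Camp at 28.8% and 84.9%. These granule genes were therefore less confined to neutrophil-like cells in the normal library, where 3 droplets of other clusters held many of their UMIs, as described below. Lcn2 had 32.1% and 30.7% of its UMIs in neutrophil-like cells and Wfdc21 5.84% and 15.4%, and Elane and Mpo had 0 of 840 UMIs there in normal and 3 of 83 in fibrosis.

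Within neutrophil-like cells, the members moved apart between the livers. The S100 pair was lower in fibrosis and the specific granule genes Camp, Ngp and Ltf were higher. S100a8 stood at 175 per 10000 in normal and 106 in fibrosis, a ratio of 0.602 (0.58 to 0.625). S100a9, its partner, was the most abundant member in both libraries, at 235 and 154, a ratio of 0.653 (0.632 to 0.673). All 14 alternative settings left both below 1, from 0.135 to 0.736 for S100a8 and from 0.146 to 0.796 for S100a9. Camp, which codes the only mouse cathelicidin, was at 6.49 in normal and 25.1 in fibrosis, a ratio of 3.87 (3.43 to 4.37). Ngp, a cystatin-like granule protein, was at 9.99 and 32.4, a ratio of 3.24 (2.94 to 3.59). Ltf, which binds iron, was at 5.23 and 14.1, a ratio of 2.69 (2.33 to 3.11). The direction depended on how cells were taken. Over all cells with at least 2 UMIs of the naming markers, whatever their cluster (1415 in normal and 2300 in fibrosis), the ratios turned to 0.269 for Camp, 0.414 for Ngp and 0.393 for Ltf.

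The other members differed less between the livers. Lcn2, which binds bacterial siderophores, was at 9.81 in normal and 13.8 in fibrosis, a ratio of 1.4 (1.24 to 1.59). Retnlg was at 22.8 and 25.2, a ratio of 1.1 (1.01 to 1.2). The direction of both depended on the setting, with 5 of 14 alternatives below 1 for Retnlg (range 0.25 to 1.28) and 2 of 14 for Lcn2 (0.384 to 1.74). Wfdc21 was at 11.2 and 7.96, a ratio of 0.714 (0.619 to 0.821). Once the level of lymphoid cells of the same library was subtracted, Wfdc21 was at 7.63 in both. That ratio of 0.999 was the highest of 14 alternatives, which ran from 0.136 and were all below 1. In fibrosis, 12 cells rich in Camp, Ngp and Ltf held 180 of its 284 UMIs, and the remaining cells stood at 10.00 in normal and 3.28 in fibrosis. Elane was at 0 UMIs in both libraries, which allows up to 0.0499 per 10000 in normal, and Mpo was at 0 in normal and 3 UMIs in fibrosis. The comparison of size took genes that reached 1 UMI per 10000 in normal or in fibrosis. Of the 8 such members, 3 were at least 2-fold higher in fibrosis (Camp, Ngp and Ltf), beside 12.1% of the 2348 genes measured at that level, and 0 were at least 2-fold lower, beside 9.33%.

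**Figure D2:**
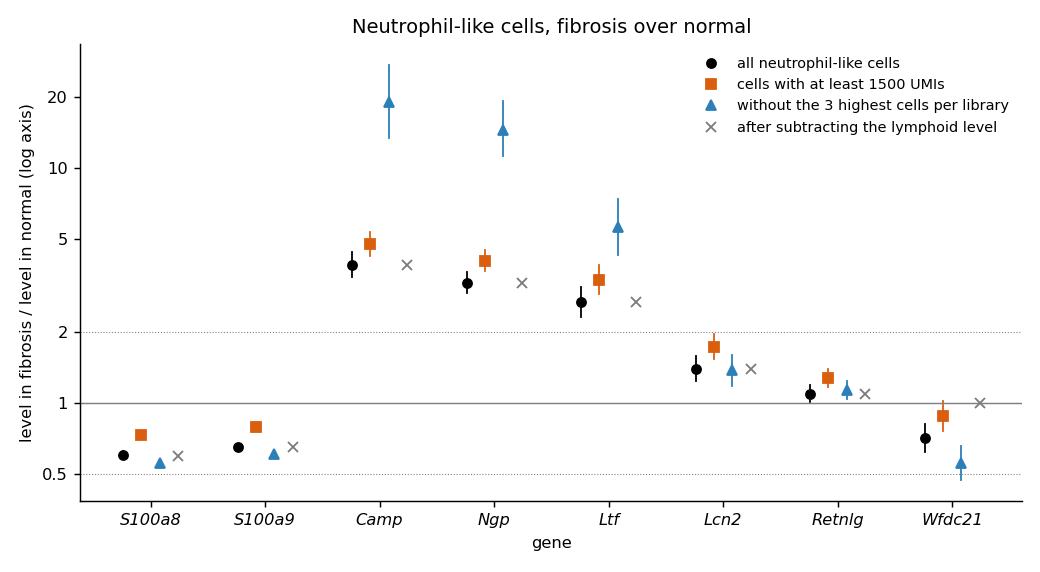
Ratio of the level in fibrosis to that in normal (y axis, log scale) in neutrophil-like cells for 8 members (x axis, gene), 1 library in each condition, with exact intervals of counting error. Circles take all cells, squares cells with at least 1500 UMIs, triangles all but the 3 cells per library that hold most member UMIs, and crosses the level after the lymphoid level is subtracted, and the lines mark a ratio of 1 and 2-fold in either direction. Camp, Ngp and Ltf lie at 2.69 to 3.87 over all cells, and S100a8 and S100a9 at 0.602 and 0.653.

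The lower S100 level was spread over many cells. Taken cell by cell, the summed S100a8 and S100a9 level had a median of 265 per 10000 in normal cells (quartiles 79.3 and 553) and 62.1 in fibrosis (17.8 and 227). The quartiles overlapped, and single cells of either library ran from 0 to 1994 in normal and to 1497 in fibrosis. At least 10 S100 UMIs were found in 155 of 191 normal cells (81.2%, 74.9 to 86.4) and in 103 of 192 fibrosis cells (53.6%, 46.3 to 60.9). Cells under that count were shallower, with medians of 1474.5 UMIs beside 2767 in normal and 1083 beside 2005 in fibrosis. These shares therefore depend on depth too. With every cell thinned to 1000 UMIs, a count of either gene was seen in 96.9% of normal and 88.8% of fibrosis neutrophil-like cells, beside 97.9% and 89.6% unthinned. Lymphoid cells, which should lack both genes, gave 8.74% and 7.26% thinned and 22.5% and 16.5% unthinned, at median depths of 3164 and 2561 UMIs. The share in neutrophil-like cells was thus far above that of free RNA in both livers.

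The S100 level differed between clusters within each library, and the deeper cluster had the lower level in normal and the higher one in fibrosis. The normal neutrophil-like cells formed a cluster of 167 cells with a median of 2487 UMIs and an S100 level of 487, and one of 24 cells with 6103.5 UMIs and a level of 199. In fibrosis there was a cluster of 115 cells with 1914 UMIs and a level of 336, and one of 77 cells with 1072 UMIs and a level of 64.3. One dividing, granule-rich cell held 446 of the 649 S100 UMIs of the latter, and without it the level was 21. That cluster was led by Cd177, Tarm1 and Il1r2 among known genes. Among cells with at least 1500 UMIs, 167 in normal and 113 in fibrosis, the ratio was 0.736 for S100a8 and 0.796 for S100a9, so both remained lower in fibrosis but by less. The part of depth and of broken cells in this difference was not tested.

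The higher granule gene level, by contrast, came from a handful of cells. Camp, Ngp and Ltf together reached 10 UMIs in 6 of 191 normal cells (3.14%, 1.16 to 6.71) and 12 of 192 fibrosis cells (6.25%, 3.27 to 10.7), and these intervals overlap. The 5 highest cells held 97.0% of the summed UMIs of the 3 genes in normal neutrophil-like cells and 78.3% in fibrosis. In the remaining 185 and 180 cells the 3 genes summed to 0.509 and 0.756 per 10000. The ratio between the livers is thus a ratio of a few cells rich in these messages. Across all kept cells, the 3 genes had 3034 UMIs in normal and 3056 in fibrosis, a ratio of levels of 0.812 (0.772 to 0.854). At least 100 UMIs of them were found in 7 cells of each library, of which 4 in normal and all 7 in fibrosis had been placed among neutrophil-like cells.

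**Figure D3:**
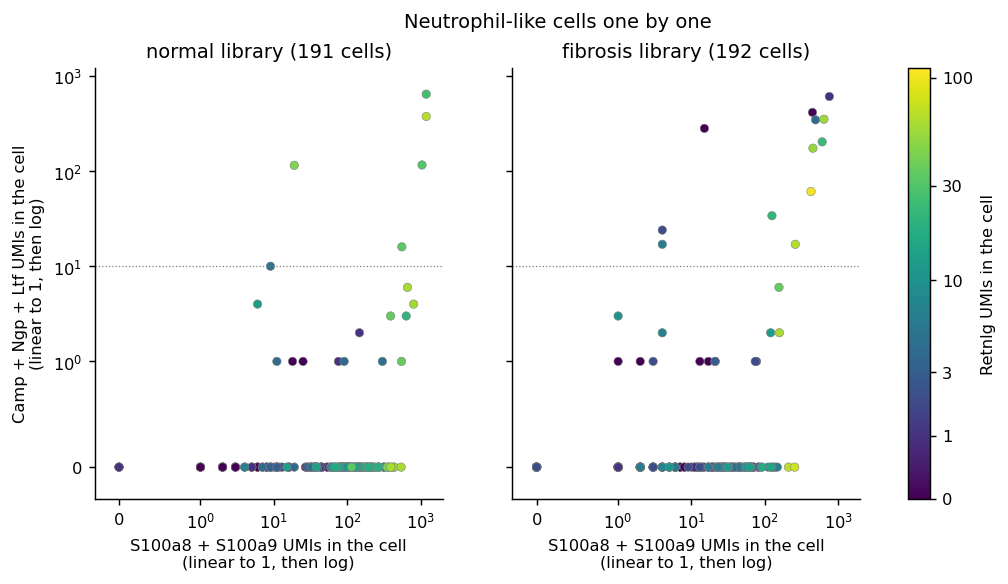
Each point is 1 neutrophil-like cell, with its UMIs of S100a8 and S100a9 (x axis) and of Camp, Ngp and Ltf (y axis), both linear to 1 UMI and logarithmic above, and its Retnlg UMIs as colour, in 191 normal and 192 fibrosis cells. Most cells lie at 0 for the granule genes, and 6 normal and 12 fibrosis cells reach the dotted line at 10 UMIs.

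The cells rich in granule messages differed from each other in their late genes. The highest in fibrosis had 243 UMIs of Camp, 255 of Ngp, 110 of Ltf and 758 of the S100 pair, with 1 UMI of Retnlg. The next had 414 UMIs of the 3 genes, 446 of the S100 pair, 0 of Retnlg, and 7 of Mki67 and 6 of Top2a, which mark dividing cells. The third had 351 UMIs of the granule genes together with 54 of Retnlg. Retnlg, a gene of mature neutrophils, was thus at 0 or 1 UMI in some of these cells and plentiful in others. Over the 12 fibrosis cells the S100 pair stood at 1077 per 10000 and Lcn2 at 87.7, and over the 6 normal cells at 1325 and 82.4. Lcn2 was at 4.63 in the other 180 fibrosis cells and 5.94 in the other 185 normal cells.

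In the normal library the highest cell for Camp, Ngp and Ltf was not in a neutrophil-like cluster. It held 1052 UMIs of them (Camp 599, Ngp 350, Ltf 103), with 493 of the S100 pair, 186 of the granule gene Chil3 and 0 of Retnlg, and lay in a cluster of dividing cells. It alone carried 34.7% of the UMIs of these genes in that library. Another droplet, placed among stellate and myofibroblast-like (HSC/MF-like) cells, had 314 UMIs of them with 12 of the stellate gene Reln and 8 of the S100 pair. Without it, the 3 genes were at 0.0269 per 10000 in normal HSC/MF-like cells, against 2.13 with it. Without the 3 cells of each library that held most member UMIs, the neutrophil-like ratio was 18.9 for Camp, 14.5 for Ngp and 5.58 for Ltf, so its size rests on single cells.

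Elane and Mpo, the azurophil granule genes, were found in a few droplets of the normal library and nowhere at a comparable count in fibrosis. The normal library had 409 UMIs of Elane and 431 of Mpo. One droplet of 20825 UMIs held 368 of Elane and 306 of Mpo. In the same droplet were 375 UMIs of Prtn3, 39 of Ctsg, 71 of Fcnb and 25 of Ms4a3, which mark promyelocytes and early precursors, along with 203 of Camp, 612 of S100a8, 540 of S100a9 and 0 of Retnlg. It had clustered with 178 other cells named migratory-dendritic-cell-like. A droplet of 16399 UMIs had 94 of Mpo and 8 of Elane with 0 of the S100 pair, and one of 17126 UMIs, in a cluster of dividing cells, had 25 of Elane and 18 of Mki67. These 3 cells held 95.7% of the UMIs of both genes.

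In fibrosis there were 6 UMIs of Elane and 77 of Mpo. The Mpo UMIs were spread over 73 cells with at most 2 in any cell, and no cell had 10 UMIs of the pair, which with 0 of 6132 cells leaves an upper bound of 0.0601%. The normal share was 0.0402% of cells (0.00828 to 0.117), and these intervals overlap. A difference in the number of such cells was not detectable at this depth.

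The genes around the members were read from fixed lists in neutrophil-like cells. Of 4 other azurophil granule genes, 1 reached 1 UMI per 10000 and was at least 2-fold higher in fibrosis. This was Ctsc, the protease that activates granule serine proteases, at 0.799 in normal and 4.68 in fibrosis. Of 8 other specific granule genes 6 reached that level, of which 2 were higher and 1 was lower. Chil3 was at 0.799 and 8.83, and 4 of the granule-rich fibrosis cells held 87, 94, 67 and 32 of its 315 UMIs, as 1 normal cell held 28 of 48. Cybb, a subunit of the NADPH oxidase, was at 1.86 and 7.15. Hp, haptoglobin, was lower, at 11.8 and 4.82. Mmp8, the neutrophil collagenase, was at 5.14 and 6.62. In lymphoid cells Ctsc (1.42 and 3.94) and Cybb (0.982 and 3.12) were more than 2-fold higher in fibrosis too, and Hp was again lower, whereas Chil3 was at 0.0136 and 0.207 there.

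The other lists held genes of later compartments, relatives, receptors and regulators. Of 6 gelatinase granule and secretory vesicle genes 5 reached the level and 1 was higher, the formyl peptide receptor Fpr2, at 2.28 and 4.66. Mmp9, gelatinase B, was at 9.82 and 8.75. Of 12 other S100 genes 5 reached the level and 1 was lower, S100a11, at 17.0 and 7.8, and S100a6 was at 26.9 and 20.6. Of 7 other WAP-domain and resistin-like genes, 6 of them in the tables, 2 reached it, and Wfdc17 was lower, at 11.3 and 4.54, while the protease inhibitor Slpi was at 10.1 and 5.41. Of 8 receptors of member proteins 4 reached it, and Cd36 (1.9 and 6.2) and Lrp1 (0.699 and 1.82) were higher, as they were in lymphoid cells (0.961 and 3.6, and 0.428 and 1.33). Of 6 granulopoiesis transcription factors 3 reached it and 0 of these passed 2-fold, with Cebpb at 19.3 and 24.4. The median log2 ratio of fibrosis over normal was 0.61 for the specific granule list, −0.06 for the gelatinase list, −0.61 for the other S100 genes, −1.09 for the WAP-domain and resistin-like list, 1.03 for the receptors and −0.27 for the transcription factors, beside 0.20 over all 2348 genes.

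Over the 33 class-by-library values, the genes whose log2 level ran closest to that of the S100 pair were Acod1 (Pearson r = 0.95), Cxcr2 (0.94), Asprv1 (0.92), Hcar2 (0.91) and Il1r2 (0.91), out of 5685 genes. Those closest to Camp, Ngp and Ltf were Acod1 (0.91), Cxcr2 (0.90), Il1f9 (0.89), Ly6g (0.88) and Il1r2 (0.87). All of these but Hcar2 were among the markers that named the neutrophil-like cells, and the values within a library share its depth and free RNA. Elane followed the S100 pair with r = 0.23 and Mpo with 0.31.

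Classical-monocyte-like cells carried the members at about the level of cells that should lack them. The normal library had 109 classical-monocyte-like cells (median 5718 UMIs), in which 7 of 8 classical markers were raised, with a summed level of 68.8 against 7.31 in the other cells. The same cluster also had 8 of 9 non-classical markers raised. In fibrosis 213 cells took the name (median 8408 UMIs) with 5 of 8 classical markers raised and a sum of 18.0 against 5.3, and 116 cells were non-classical-monocyte-like, with a higher sum of classical markers, 42.7. Kupffer cell markers summed to 70.4 in the 213 fibrosis cells against 48.0 in the other cells, and to 8.35 against 24.2 in normal. The name therefore fits the fibrosis cluster loosely, and the clusters compared below may not hold like cells.

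S100a8 was at 0.215 per 10000 in normal classical-monocyte-like cells (13 UMIs) and 0.141 in fibrosis (26 UMIs), a ratio of 0.654 (0.324 to 1.39). S100a9 was at 0.265 (16 UMIs) and 0.179 (33 UMIs). Neither direction was stable, since 2 of 6 alternatives gave a ratio above 1, reaching 1.85 for S100a8 and 1.55 for S100a9 at a clustering resolution of 0.4. These levels were below those of lymphoid cells, where S100a8 stood at 0.314 and 0.39 and S100a9 at 0.424 and 0.494. Counted per cell, the S100 pair gave 0.266 UMIs in normal and 0.277 in fibrosis classical-monocyte-like cells, beside 0.272 and 0.267 in lymphoid cells. With cells thinned to 1000 UMIs, 2.75% of normal and 6.7% of fibrosis classical-monocyte-like cells had an S100 UMI, below the lymphoid shares of 8.74% and 7.26%. Unthinned, the classical-monocyte-like shares were 23.9% and 19.7%, slightly above the lymphoid 22.5% and 16.5%. In the fibrosis cells called non-classical-monocyte-like the pair was at 0.464 per 10000.

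Camp, Ngp and Ltf together had 1 UMI in normal classical-monocyte-like cells and 9 in fibrosis, and Retnlg had 1 and 4. The whole member set was at 3.03 per 10000 in these cells in normal and 0.65 in fibrosis, a ratio of 0.214. Nearly all of that difference was Wfdc21, at 2.47 and 0.195, and without it the ratio was 0.807. Wfdc21 was the only member with at least 1 UMI per 10000 there, and so 1 of 1 was at least 2-fold lower, beside 13.9% of 2266 genes lower and 14.5% higher. Other S100 genes were well above the pair in normal monocytes, with S100a4 at 22.8 and S100a6 at 21.7. In fibrosis they were at 1.03 and 3.49 in the classical-monocyte-like cluster, and at 1.87 and 4.57 with the non-classical-monocyte-like cells added.

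Outside neutrophil-like cells, the S100 counts were sparse and differed in size from class to class. Free RNA, which leaks from broken cells into the suspension, can give a droplet such counts whatever cell it holds. Leaving Wfdc21 and Lcn2 aside, 73.0% of the 7280 other normal cells and 72.4% of the 5940 other fibrosis cells had no member UMI. A few cells had many, with 13 normal cells of at least 10 UMIs holding 65.9% of those outside and 14 fibrosis cells holding 31.9%. In normal, the S100 pair was at 0.314 UMIs per endothelial-like cell, 0.273 per B-cell-like cell and 0.271 per NK/T-cell-like cell. In fibrosis these were 0.232, 0.196 and 0.333, and other named classes of at least 20 cells ran from 0.163 in erythroid-like to 0.421 in scar-associated-macrophage-like cells, apart from those named next. Per 10000 UMIs, endothelial-like cells stood at 0.514 in normal and 0.288 in fibrosis, at median depths of 5884 and 7511 UMIs.

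Several classes with more S100 UMIs per cell owed them to single droplets. Normal migratory-dendritic-cell-like cells had 6.7 S100 UMIs per cell, and the droplet rich in Elane held 96.0% of them. Normal Kupffer-cell-like cells had an S100 level of 1.5, of which 1 cell held 202 of 284 UMIs, and without it the level was 0.434. HSC/MF-like cells had 1.3 S100 UMIs per cell in normal and 1.29 in fibrosis, with 75.6% and 73.6% of them in 3 cells. Fibrosis cDC2-like cells had 1.43 per cell, with 88.4% in 3 cells, and pDC-like cells 0.973, with 84.9% in 3 cells. Per 10000 UMIs, shallow cells stood higher without any such droplet, as in fibrosis erythroid-like cells, at 1.21 with a median of 972 UMIs and 2.11% of the S100 UMIs in the highest cell.

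S100a8 and S100a9 had a similar ratio to each other in neutrophil-like and lymphoid cells, but not in every class. There were 0.744 S100a8 UMIs per S100a9 UMI in normal neutrophil-like cells and 0.687 in fibrosis, beside 0.739 (0.607 to 0.898) and 0.79 (0.6 to 1.04) in lymphoid cells. Endothelial-like cells gave 0.87 (0.742 to 1.02) in normal and 0.554 (0.449 to 0.683) in fibrosis. Normal cholangiocyte-like cells gave 0.439 (0.288 to 0.657). All cells but the neutrophil-like gave 0.828 (0.78 to 0.88) in normal, above the neutrophil-like interval (0.726 to 0.763). In fibrosis they gave 0.722 (0.663 to 0.785). Lymphoid cells of the normal liver held S100a8 at 0.179% of its neutrophil-like level, S100a9 at 0.18%, Ngp at 0.188%, Ltf at 0.196% and Camp at 0.315%. Retnlg was lower, at 0.0523%, and Lcn2 was higher, at 0.626%. In fibrosis the same shares were 0.37% for S100a8, 0.322% for S100a9, 0.332% for Ngp, 0.453% for Ltf, 0.301% for Camp, 0.364% for Retnlg and 0.81% for Lcn2. Single droplets weighed on these, and without the highest lymphoid cell of each gene the share was 0.0794% for Camp, 0.17% for Ltf, 0.222% for Ngp and 0.222% for Retnlg. Wfdc21 stood far from the rest, at 31.6% in normal and 4.25% in fibrosis.

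Camp, Ngp and Ltf together were at 0.0494 per 10000 in normal lymphoid cells and 0.247 in fibrosis, a ratio of 5.0 (3.17 to 8.06). One B-cell-like droplet held 33 of the 62 UMIs in fibrosis, and without it the level was 0.116. Retnlg was at 0.0119 and 0.0916. The 10 members together were at 4.39 in normal and 1.71 in fibrosis, a ratio of 0.389 (0.35 to 0.431), which turned to 1.58 without Wfdc21. Wfdc21 itself was at 3.53 and 0.339, the only member of at least 1 UMI per 10000 in lymphoid cells, so that 1 of 1 was 2-fold lower, beside 7.98% of 2432 genes lower and 6.83% higher.

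Wfdc21 was set against hepatocyte RNA, which was not done for the other members. In normal cells it was highest in neutrophil-like cells (11.2) and in 128 hepatocyte-like cells (10.8), and was present in every named class. Its count per 1000 UMIs of hepatocyte markers such as Alb and Apoa1 was 16.5 in lymphoid cells, 16.3 in endothelial-like cells and 16.6 in classical-monocyte-like cells of the normal liver. In fibrosis it was 16.2, 14.2 and 16.7. Over those classes the ratio was thus similar, while hepatocyte markers went from 214 per 10000 in normal lymphoid cells to 20.9 in fibrosis. Lower values were found in hepatocyte-like cells themselves, at 6.92 and in cholangiocyte-like cells, at 7.13 in normal and 0.717 in fibrosis. A fibrosis cluster of 147 cells led by the hepatocyte genes Fabp1, Gsta1 and Rbp4, with Wfdc21 at 8.4 per 10000, gave 18.4. Neutrophil-like cells gave 44.5 (41.2 to 48.1) in normal and 272 (237 to 310) in fibrosis. In every other named class it was at most 19.1. The source of the Wfdc21 UMIs was not tested.

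**Figure D4:**
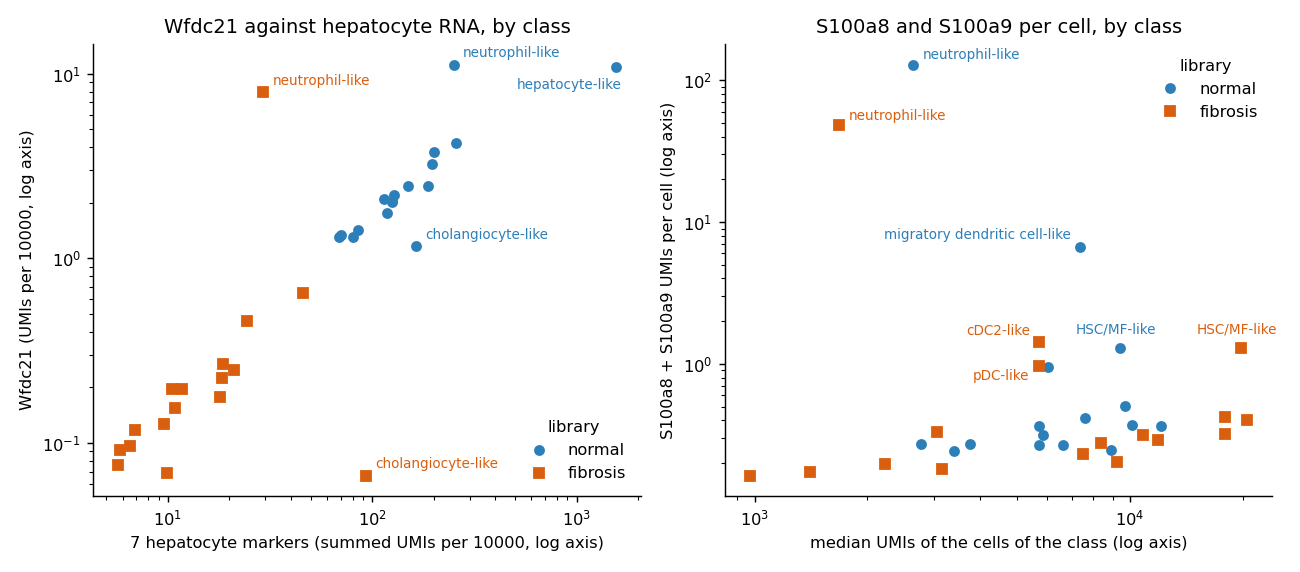
Each point is 1 named cell class of the normal (circles) or the fibrosis (squares) library, all axes logarithmic. On the left the Wfdc21 level is set against the summed level of 7 hepatocyte markers, both in UMIs per 10000, and on the right the S100a8 and S100a9 UMIs per cell against the median UMIs of the class. On the left, neutrophil-like cells lie above the other classes in Wfdc21 for their hepatocyte RNA and cholangiocyte-like cells lie low, with 0.717 Wfdc21 UMIs per 1000 hepatocyte marker UMIs in fibrosis, and on the right neutrophil-like cells are the highest.

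Lcn2 was found in epithelial and mesothelial cells as well as in neutrophils. Lipocalin 2 is known as an acute phase protein of epithelia and hepatocytes. In cholangiocyte-like cells, the lining of the bile ducts, it was at 2.73 per 10000 in normal (852 UMIs in 154 of 234 cells) and 1.45 in fibrosis (261 UMIs in 45 of 90 cells), a ratio of 0.531 (0.461 to 0.611). In mesothelial-like cells, which cover the liver surface, it was at 0.0545 in normal (5 UMIs in 5 of 89 cells) and 2.0 in fibrosis (349 UMIs in 52 of 80 cells, at most 27 in a cell). The clusters were not alike, since fibroblast genes such as Dpt, Clec3b and Col1a1 were among the leading genes of the normal one, and the summed levels of mesothelial and portal fibroblast (PF) markers were 42.8 and 44.4 in normal beside 23.6 and 14.4 in fibrosis. In the cells with more mesothelial than PF marker UMIs, a split chosen after seeing the data, Lcn2 was at 0.0568 in normal (3 UMIs, 41 cells) and 1.88 in fibrosis (261 UMIs, 62 cells). In the other cells it was at 0.0513 (48 cells) and 2.44 (18 cells), so the level was higher in fibrosis on both sides of the split. With cells thinned to 1000 UMIs, Lcn2 was seen in 0 of 89 normal and 12 of 78 fibrosis mesothelial-like cells (15.4%), and the unthinned shares were 5.62% and 65.0%, at median depths of 8913 and 20593 UMIs. Endothelial-like cells, as background, had a level of 0.0398 in normal and 0.0625 in fibrosis.

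In HSC/MF-like cells Lcn2 was lower in fibrosis, at 0.782 in normal and 0.0604 in fibrosis, a ratio of 0.0772 (0.055 to 0.107). In normal it came from 21 of 138 cells, of which 3 held 57.3% of the UMIs, and without the highest cell the level was 0.593. A pair of cells tied as highest with 29 UMIs each, and one of them was the droplet with 314 UMIs of Camp, Ngp and Ltf. The fibrosis cluster led by Fabp1 had Lcn2 at 2.12, with 205 UMIs in 37 of 147 cells, beside 0.144 in the hepatocyte-like cells of the normal liver. Neutrophil-like cells were the highest class in both livers, followed by cholangiocyte-like cells in normal, at 2.73, and by Fabp1-led, mesothelial-like and cholangiocyte-like cells in fibrosis, at 1.45 to 2.12.

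**Figure D5:**
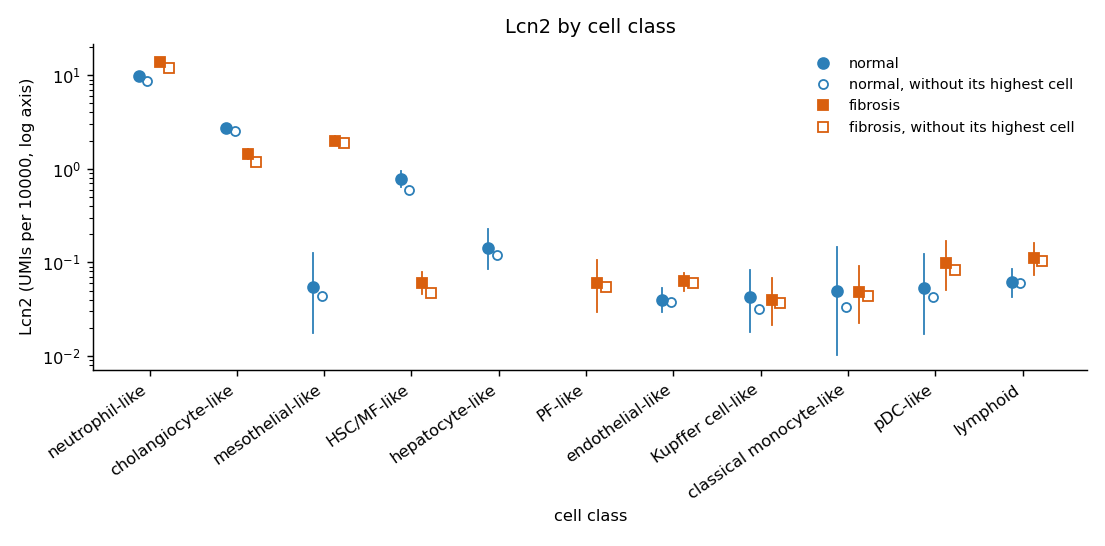
Lcn2 level (y axis, log scale, UMIs per 10000 UMIs of the class) in cell classes (x axis) of the normal and the fibrosis library, with exact Poisson intervals of counting error, and open symbols for the level without the highest cell of the class. Mesothelial-like cells, a cluster mixed with fibroblast genes in normal, stand at 0.0545 in normal and 2.0 in fibrosis, and cholangiocyte-like cells at 2.73 and 1.45.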

How the data were processed

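Liver NPCs of 1 normal and 1 CCl4-treated mouse were profiled by 10x 3′ single-cell RNA-seq. The authors deposited UMI counts per gene and cell for each library, aligned to mm10 with Cell Ranger 3.0.1 per the submitters' processing notes. Their methods state that doublets were excluded with Scrublet, and Scrublet run again here called 0 cells in either library. The members and lists were chosen with earlier results of these data known.

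Cells with over 10% mitochondrial UMIs or fewer than 200 genes were left out. Each library was clustered alone with scanpy 1.11.5 and leidenalg 0.10.2 on 2000 variable genes other than the members, 10 principal components, 20 neighbours and a resolution of 0.8. Myeloid clusters and clusters led by genes of dividing cells were then clustered again together, a step chosen after seeing the data. The resulting clusters took names from the myeloid lists alone. Some led by endothelial genes such as Vwf or Lyve1 stayed unnamed. A fibrosis cluster of 39 cells named pDC-like was led by Cyp1a1, Fmo2 and Nts. The endothelial-like class is therefore not complete, and the fibrosis pDC-like class may be mixed. A cluster was named from marker lists by its leading 10 genes and at least 3 markers raised 2-fold. Levels are summed UMIs per 10000, with exact Poisson intervals, ratios with exact conditional intervals and shares with Clopper-Pearson intervals. With a count of 0, the limit is 3 counts. Genes were compared where they reached 1 UMI per 10000 in either library, and pattern likeness used log2 of the level plus 0.1 over classes of at least 20 cells. All 10 members were described in every class, and companion genes were counted by list, with up to 4 of the highest level named. Single cells were named after their values were seen. Lymphoid cells are those named B-cell-like or NK/T-cell-like. Gene positions came from GENCODE and promoters from RefSeq, where 9 of 10 members matched. The ratio script was checked on simulated counts. Analyses ran in Python 3.11.15 with numpy 2.4.6, pandas 2.3.3 and scipy 1.17.1.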

Additional observations from a re-analysis of the deposited data

How the results depend on the processing

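Each condition had 1 library, so no value could be set against the spread between mice. No paired analysis was possible because each condition has 1 library. Of 52 recomputed values of the 5 main results, 17 moved by less than their counting interval, 34 moved by more and 1 reversed. The neutrophil-like ratio of all members, 0.793, stayed below 1 throughout. It was 0.851 with a mitochondrial limit of 5%, 0.672 with none, 0.724 at a resolution of 0.4, 0.704 with 20 principal components, 0.764 with the members among the variable genes, 0.642 without the highest 5% of doublet scores, 0.469 as UMIs per cell, 0.769 with members, mitochondrial, ribosomal-protein and haemoglobin genes out of the denominator, and 0.709 without the 3 cells that hold most member UMIs. Alternatives chosen after seeing the data gave 0.839 for the largest cluster alone and 0.967 for cells with at least 1500 UMIs. Taking any cell with at least 2 UMIs of the naming markers gave 0.167, and there Camp (0.269), Ngp (0.414) and Ltf (0.393) turned lower in fibrosis. That rule took in 1415 normal and 2300 fibrosis cells, of which 191 and 189 were in neutrophil-like clusters.

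The classical-monocyte-like ratio was 0.368 at a resolution of 0.4, 0.336 as UMIs per cell and 0.807 without Wfdc21. It had no value with a mitochondrial limit of 5%, 20 principal components, the members among the variable genes or doublet scores removed, since no cluster of 1 library then took the name, nor after subtraction of the lymphoid level, which left values below 0. The lymphoid ratio was 0.319 as UMIs per cell and 0.288 without the 3 highest cells, where Camp turned to 0.976, and 1.58 without Wfdc21.

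The share of member UMIs in neutrophil-like cells went in normal to 75.5% with the 5% limit, 50.7% with no limit, 60.5% at resolutions of 0.4 and 1.5 and with the members among the variable genes, 62.4% with 20 principal components, 56.5% without high doublet scores, 75.9% by marker UMIs and 79.6% without Wfdc21 and Lcn2. In fibrosis it went to 87.7%, 69.0%, 66% at a resolution of 0.4, 71.3% with the members among the variable genes, 65.0%, 71.8%, 88.1% and 81.0% under the same settings. The cause of these changes was not tested. Of 244 recomputed values of single members, 164 moved by less than their interval, 76 by more, and 4 were counted as reversed. These were Camp, Ngp and Ltf in neutrophil-like cells and Camp in lymphoid cells. Other ratios crossed 1 without being counted so, among them Retnlg (5 of 14) and Lcn2 (2 of 14) in neutrophil-like cells.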
